A study of Mus musculus with 2 samples.

Results

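The genes described here are the Toll-like receptors *Tlr2*, *Tlr4*, *Tlr7*, *Tlr9* and *Tlr13* and 4 of their partners, *Cd14*, *Ly86*, *Unc93b1* and *Myd88*. They were chosen by name, and these 9 genes are among 54838 in the count matrices. Their levels were measured in single-cell RNA libraries of sciatic nerve (SN) macrophages from male Flt3-Cre LSL-YFP fl/fl mice aged 10 to 12 weeks. In these mice, Cre driven by *Flt3* switches on YFP in cells that have passed through a *Flt3*-expressing stage of haematopoiesis, and the study takes the YFP+ macrophages to be of HSC origin and those without YFP to be of embryonic origin. Nerves of 19 mice were pooled, CD64+ CD45int macrophages were sorted by YFP, and the YFP− and YFP+ cells were sequenced as 1 library each. Both groups therefore carry the same alleles and come from the same pool of animals, and no treatment was given in the labels.

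Toll-like receptors detect molecules of microbes and of damaged cells. TLR2 and TLR4 sit on the cell surface and respond to bacterial lipoproteins and lipopolysaccharide, while TLR7, TLR9 and TLR13 sit in endosomes and respond to single-stranded RNA, unmethylated DNA and bacterial ribosomal RNA. CD14 hands lipopolysaccharide and lipoproteins to the surface receptors, LY86 (MD-1) holds the TLR-like protein CD180, UNC93B1 carries the nucleic acid receptors to endosomes, and MYD88 is the adaptor that nearly all of these receptors use to activate NF-kB.

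Cells were barcodes with at least 500 unique molecular identifiers (UMIs, each standing for 1 captured RNA molecule) and 200 genes. The YFP− library held 1045 cells with 2418044 UMIs and a median of 2233 UMIs per cell, and the YFP+ library 4053 cells with 6747554 UMIs and a median of 1484. A total of 7 cell barcodes occurred in both libraries. All 10 macrophage markers checked were present, with summed levels of 20309 (YFP−) and 20272 (YFP+) counts per 1000000 UMIs (CPM). Of the neutrophil list, *S100a8*, *S100a9*, *Retnlg* and *Ly6g* were at 0 in both libraries, and of the monocyte list, *Plac8*, *Chil3* and *F10* were. Markers of B cells, which like plasmacytoid dendritic cells are known for *Tlr7* and *Tlr9*, summed to 57.9 (YFP−) and 53.8 CPM (YFP+), with *Cd79a*, *Ms4a1*, *Pax5* and *Fcmr* at 0, and those of plasmacytoid dendritic cells to 344 and 349 CPM, with *Klk1* and *Ly6d* at 0 in both. The other lists summed to 172 and 109 CPM for neutrophils, 125 and 292 for monocytes, 72.0 and 64.6 for conventional dendritic cells, 2.07 and 2.07 for T cells, 0.414 and 0.296 for mast cells, 23.6 and 94.6 for fibroblasts, 10.3 and 11.1 for endothelial cells and 9.93 and 115 for mural cells. Only 1 of the 7 monocyte genes reached 3 UMIs in each library, so the monocyte sums rest almost wholly on 1 gene. With 1 library per group no test of the group could be made, and no p-value is given. The 95% intervals below are exact, treat UMIs as independent and cover counting error only, not the spread between mice.

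The surface receptors were transcribed at low levels. *Tlr2* (ENSMUSG00000027995, chr3:83836272-83841767 on the minus strand of GRCm38) had 100 UMIs in the YFP− library, 41.4 CPM (95% interval 33.6 to 50.3), and 389 UMIs in the YFP+ library, 57.7 CPM (52.1 to 63.7). *Tlr4* (ENSMUSG00000039005, chr4:66827584-66930284, plus strand) had 106 UMIs, 43.8 CPM (35.9 to 53.0), in the YFP− and 211 UMIs, 31.3 CPM (27.2 to 35.8), in the YFP+ library. The intervals of the libraries did not overlap for either receptor, and the order was opposite, with *Tlr2* higher in YFP+ and *Tlr4* higher in YFP− cells.

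Promoter sequences are shown for 3 members whose levels are set side by side below. *Tlr2* was higher in a group of cells with an early-response programme, *Tlr13* was an endosomal receptor at about the same level in both libraries, and *Ly86* was lower in a group of cells marked by *Cd209* genes. RefSeq promoters of GRCm38.p6, from 250 bases before to 50 bases after the start site, were at hand for 5 of the 9 members. Capitals mark matches on either strand to motifs of NF-kB (GGGANNNNCC), AP-1 (TGANTCA), PU.1 (core GAGGAA), CREB (TGACGTCA) and the GC box (GGGCGG). Each is printed 5′ to 3′ on the strand of its gene: *Tlr2* at chr3:83841559-83841858 (minus strand), *Tlr13* at chrX:106143025-106143324 and *Ly86* at chr13:37345095-37345394 (plus strand).
Tlr2: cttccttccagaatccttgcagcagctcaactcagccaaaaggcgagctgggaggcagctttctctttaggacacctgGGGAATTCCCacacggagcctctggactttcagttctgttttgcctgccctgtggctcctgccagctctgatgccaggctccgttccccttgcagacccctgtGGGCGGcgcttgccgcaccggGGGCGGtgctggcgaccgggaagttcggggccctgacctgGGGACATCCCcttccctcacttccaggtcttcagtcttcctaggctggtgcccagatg
Tlr13: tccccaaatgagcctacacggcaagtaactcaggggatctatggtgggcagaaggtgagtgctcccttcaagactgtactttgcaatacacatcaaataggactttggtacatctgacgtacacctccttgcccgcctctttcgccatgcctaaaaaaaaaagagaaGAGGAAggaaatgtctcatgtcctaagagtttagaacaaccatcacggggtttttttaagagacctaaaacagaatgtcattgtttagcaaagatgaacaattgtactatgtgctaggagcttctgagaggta
Ly86: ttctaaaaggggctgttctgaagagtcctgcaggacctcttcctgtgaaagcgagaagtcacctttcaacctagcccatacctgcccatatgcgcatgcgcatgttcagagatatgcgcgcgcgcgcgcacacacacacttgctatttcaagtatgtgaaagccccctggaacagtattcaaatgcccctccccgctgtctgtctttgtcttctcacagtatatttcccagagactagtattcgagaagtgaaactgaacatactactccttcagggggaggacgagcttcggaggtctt

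The *Tlr2* promoter held 2 places that match the NF-kB motif, GGGAATTCCC at −172 to −163 and GGGACATCCC at −8 to 1, counted from 0 at the start site, each read on both strands, and 2 GC boxes. The *Tlr13* promoter held 1 PU.1 core, and the *Ly86* promoter held no match to these motifs. Of the other members with a sequence, *Tlr9* had 1 AP-1 match and 2 PU.1 cores and *Myd88* had 1 GC box. Among 32851 promoters of this length, 20.7% held the NF-kB motif, 28.3% the PU.1 core, 35.7% a GC box, 7.81% the AP-1 motif and 1.79% the CREB motif, so single matches of the more frequent motifs are common. The RefSeq start sites of *Tlr2*, *Tlr13*, *Ly86* and *Myd88* lie inside the spans of these genes in GENCODE M21. By those spans the GGGACATCCC match and the 2 GC boxes of *Tlr2* and the whole *Myd88* stretch lie within the gene. A match is a stretch of letters and was not tested for binding.

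Of the endosomal receptors, *Tlr7* was the most abundant and *Tlr9* was near the limit of detection. *Tlr7* (ENSMUSG00000044583, chrX:167304929-167330558, minus strand) had 222 UMIs, 91.8 CPM (80.1 to 104.7), in YFP− and 599 UMIs, 88.8 CPM (81.8 to 96.2), in YFP+ cells. *Tlr13* (ENSMUSG00000033777, chrX:106143204-106160493, plus strand) had 94 UMIs, 38.9 CPM (31.4 to 47.6), in YFP− and 255 UMIs, 37.8 CPM (33.3 to 42.7), in YFP+ cells. For these receptors the libraries overlapped widely. *Tlr9* (ENSMUSG00000045322, chr9:106222598-106226883, plus strand) had 2 UMIs in YFP− and 4 UMIs in YFP+ cells, 0.827 CPM (0.100 to 2.99) and 0.593 CPM (0.162 to 1.52), where 3 UMIs correspond to 1.24 and 0.445 CPM. No ratio is given for *Tlr9*.

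The partners other than *Myd88* were transcribed at far higher levels than the receptors. *Cd14* (ENSMUSG00000051439, chr18:36725067-36726798, minus strand) had 1166 UMIs, 482 CPM (455 to 511), in YFP− and 4035 UMIs, 598 CPM (580 to 617), in YFP+ cells. *Ly86* (ENSMUSG00000021423, chr13:37345208-37419036, plus strand) had 1322 UMIs, 547 CPM (518 to 577), in YFP− and 4027 UMIs, 597 CPM (579 to 616), in YFP+ cells. *Unc93b1* (ENSMUSG00000036908, chr19:3935186-3949340, plus strand) had 1185 UMIs, 490 CPM (463 to 519), in YFP− and 3071 UMIs, 455 CPM (439 to 472), in YFP+ cells. *Cd14* and *Ly86* lay higher in YFP+ cells, with intervals clearly apart for *Cd14* and barely apart for *Ly86*, and those of *Unc93b1* overlapped.

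*Myd88* (ENSMUSG00000032508, chr9:119335934-119341411, minus strand), the shared adaptor, was the least abundant member after *Tlr9*. It had 71 UMIs, 29.4 CPM (22.9 to 37.0), in YFP− and 174 UMIs, 25.8 CPM (22.1 to 29.9), in YFP+ cells. *Myd88* overlaps *Slc22a14* on the same strand and *Acaa1a* on the other in GENCODE M21, so its counts are uncertain. Reads of these libraries come from the 3′ ends of transcripts, so a UMI total does not scale with the length of a transcript, although the capture of different transcripts may differ.

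In YFP− cells the order was *Ly86*, *Unc93b1*, *Cd14*, *Tlr7*, *Tlr4*, *Tlr2*, *Tlr13*, *Myd88* and *Tlr9*. *Unc93b1* and *Cd14* could not be separated by their counts, nor could neighbours in the run from *Tlr4* to *Myd88*. In YFP+ cells the order was *Cd14*, *Ly86*, *Unc93b1*, *Tlr7*, *Tlr2*, *Tlr13*, *Tlr4*, *Myd88* and *Tlr9*. There *Cd14* and *Ly86*, and *Tlr4* and *Myd88*, could not be separated, while *Tlr2* lay above *Tlr13* by 0.61 on the log2 scale (0.38 to 0.84).

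**Figure D1:**
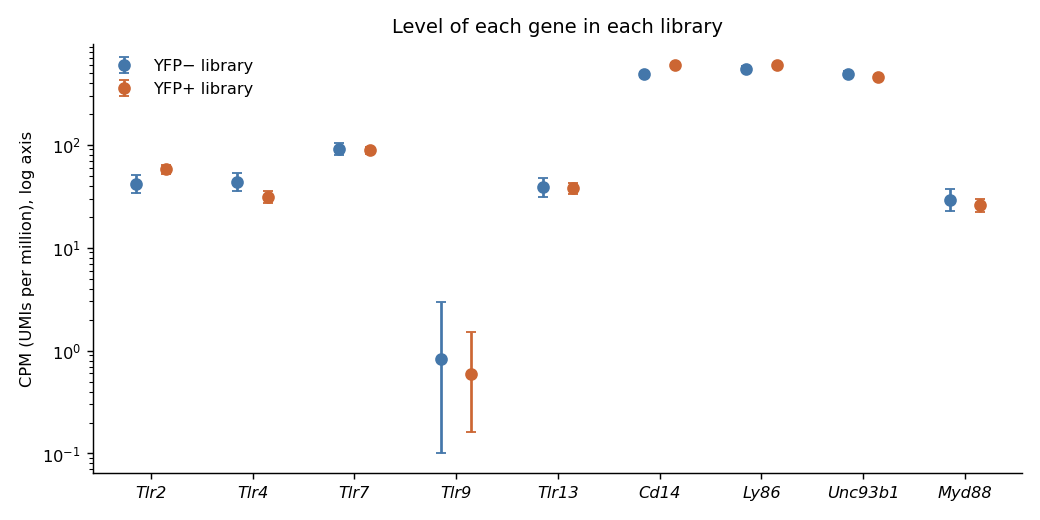
CPM of the 9 genes (log axis) in the YFP− and YFP+ library, with exact Poisson 95% intervals of the summed UMIs. *Cd14*, *Ly86* and *Unc93b1* lie between 455 and 598 CPM, *Tlr7* near 90 CPM, the other genes but *Tlr9* between 25.8 and 57.7 CPM, and *Tlr9* below 1 CPM.

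Each receptor yielded a UMI in a minority of cells. *Tlr7* was seen in 17.6% of YFP− and 13.2% of YFP+ cells, *Tlr2* in 8.42% and 7.90%, *Tlr4* in 9.28% and 5.06%, *Tlr13* in 8.23% and 5.87% and *Myd88* in 6.60% and 4.12%. *Cd14* was seen in 53.6% and 49.6%, *Ly86* in 61.7% and 55.8% and *Unc93b1* in 61.3% and 47.9%. At least 1 of the 5 receptors was seen in 36.1% (33.2 to 39.1) of YFP− and 28.2% (26.8 to 29.6) of YFP+ cells. Since YFP− cells were deeper, each cell was also thinned to 500 UMIs. The share with any receptor was then 11.7% (9.79 to 13.8) in YFP− and 10.6% (9.65 to 11.6) in YFP+ cells, and the intervals overlapped.

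RNA outside cells carried the same transcripts. Barcodes with 10 to 100 UMIs held *Cd14* at 631 CPM (YFP− library) and 624 CPM (YFP+ library), *Ly86* at 445 and 392 CPM, *Unc93b1* at 498 and 511 CPM and *Tlr7* at 104 and 88.0 CPM. At 500 UMIs, free RNA alone of this makeup would give a UMI of *Cd14* in 27.1% and 26.8% of barcodes, and 20.96% of YFP− and 22.8% of YFP+ cells had one. For *Unc93b1* 22.0% and 22.5% stood against 22.2% and 20.1%, for *Tlr7* 5.09% and 4.30% against 5.17% and 4.96%, and for *Tlr2* 2.60% and 2.72% against 2.30% and 2.37%. *Ly86* was the only member whose interval lay above this value in both libraries, 23.3% (20.7 to 25.9) against 19.96% and 25.3% (23.9 to 26.6) against 17.8%. For *Tlr7* the interval held the value in YFP− (3.91 to 6.69) and just left it out in YFP+ cells (4.31 to 5.67), and for the other members but *Tlr9* the intervals held it or lay below it. The value assumes that every UMI of a cell is free RNA, and the free RNA held the same transcripts as the cells. A share near it therefore cannot tell RNA of the cell from free RNA, and no number of expressing cells is given. In the 98 cells described next, 9.18% (4.29 to 16.7) had a UMI of *Cd14* and 4.08% (1.12 to 10.1) one of *Unc93b1*, below these values.

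In 98 cells led by mural and Schwann cell genes (*Myl9*, *Myh11*, *Tagln*; median 983 UMIs), 4.08% of cells (1.12 to 10.1) had a UMI of *Unc93b1* at 500 UMIs, against 24.3% (21.8 to 26.8) in the largest cluster of macrophages. For *Ly86* the shares were 9.18% (4.29 to 16.7) and 27.0% (24.5 to 29.6), and for *Tlr7* 1.02% (0.0258 to 5.55) and 5.45% (4.22 to 6.91). In summed UMIs, these cells lay below all others by log2 −1.50 (−2.08 to −0.98) for *Cd14*, −1.11 (−1.61 to −0.66) for *Ly86*, −1.43 (−2.06 to −0.86) for *Unc93b1* and −1.70 (−3.58 to −0.34) for *Tlr7*. The intervals held 0 for the others, at 0.06 (−1.83 to 1.44) for *Myd88*, −0.95 (−2.83 to 0.42) for *Tlr2*, −2.33 (−7.64 to 0.16) for *Tlr4* and −1.46 (−4.52 to 0.40) for *Tlr13*, each from 1 to 4 UMIs in these cells. The macrophage list lay below by −1.26 (−1.34 to −1.17) in the same cells.

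The comparison of YFP+ with YFP− macrophages asks whether these genes depend on the origin of the cells. No member passed a 1.5-fold difference: 0 of 8 members with a mean of at least 20 CPM were higher and 0 were lower, where 1.65% of 5531 genes were higher in YFP+ and 5.89% lower. The log2 ratio of YFP+ over YFP− was 0.48 (0.16 to 0.81) for *Tlr2* and −0.49 (−0.83 to −0.14) for *Tlr4*. It was 0.31 (0.22 to 0.41) for *Cd14*, 0.13 (0.04 to 0.22) for *Ly86* and −0.11 (−0.20 to −0.01) for *Unc93b1*. For *Tlr7* it was −0.05 (−0.27 to 0.18), for *Tlr13* −0.04 (−0.39 to 0.32) and for *Myd88* −0.19 (−0.59 to 0.23), with intervals that hold 0. The median over the 8 members was −0.04, and over all 5531 genes −0.0025.

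These values moved with the weighting of cells and with thinning, and the part of depth was not tested. With equal weight for every cell *Tlr4* reached −0.59, just past 1.5-fold. After thinning all cells to 500 UMIs *Tlr4* stood at −0.79 and *Myd88* at −0.72, while *Tlr2* came to 0.12 and *Cd14* to 0.12. The thinned values are 1 random draw with few counts. *Tlr4* was seen in 27 YFP− and 60 YFP+ cells, *Myd88* in 20 and 47 and *Tlr2* in 24 and 96. In a draw to 300 UMIs, *Tlr2* was seen in 0.67% of YFP− and 1.58% of YFP+ cells. *Myd88* was then seen in 0.77% and 0.69% and *Tlr4* in 1.63% and 0.89%. The ratio between the libraries stayed above 0 for *Tlr2* and below 0 for *Tlr4* in all settings tried, but several of these left out only a few cells. Within single clusters the ratio of *Tlr4* was not always below 0, as given below.

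**Figure D2:**
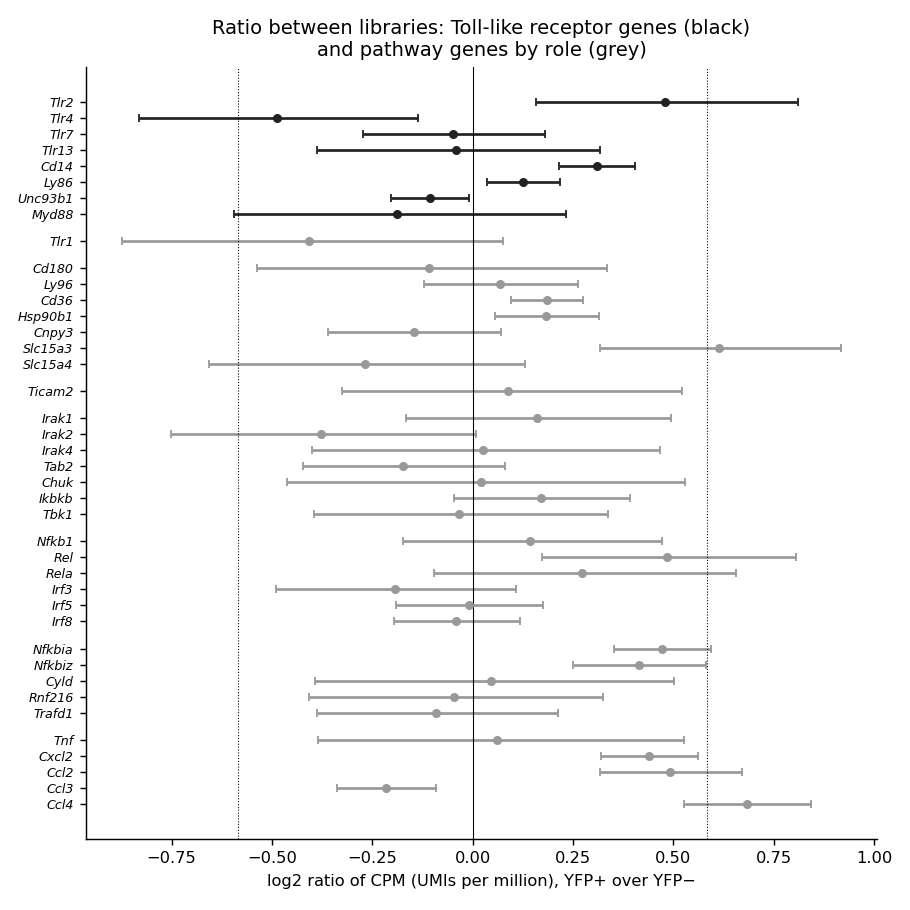
Log2 ratio of CPM, YFP+ over YFP−, of the 8 members (black) and 32 pathway genes by role (grey) with a mean of at least 20 CPM. Bars are exact 95% intervals for counting error, dotted lines mark 1.5-fold, and only *Slc15a3* and *Ccl4* lie past it.

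The other genes of the pathway, 68 in all, were taken as a list. Of 32 with a mean of at least 20 CPM, 2 were past 1.5-fold higher in YFP+ cells and 0 lower, and their median log2 ratio was 0.05. Below that mean, and named after their values were seen, *Il1b* had 9 UMIs in YFP− and 137 in YFP+ cells, a log2 ratio of 2.45 (1.48 to 3.61), and *Tlr8* and *Irf7* each had 18 and 103 UMIs, a ratio of 1.04 (0.30 to 1.85). Also below it, *Tirap* had 30 and 134 UMIs, a ratio of 0.68 (0.10 to 1.30). *Nfkb2* went the other way, with 40 and 74 UMIs, a ratio of −0.59 (−1.17 to −0.0002). *Slc15a3*, an endosomal transporter of peptides that carries bacterial muramyl dipeptide, went from 48.0 to 73.4 CPM, a log2 ratio of 0.61 (0.32 to 0.92). *Ccl4*, a chemokine made after receptor activation, went from 166 to 266 CPM, a log2 ratio of 0.68 (0.53 to 0.84). *Ly96* (MD-2), which binds lipopolysaccharide with TLR4, was at 126 and 132 CPM, and *Cd180*, the partner of LY86, at 26.1 and 24.2 CPM.

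The other Toll-like receptors were scarce. *Tlr1*, which pairs with TLR2, was at 23.6 CPM among YFP− and at 17.8 CPM among YFP+ cells, and *Tlr6*, the other partner of TLR2, at 8.27 and 9.93 CPM. *Tlr3* was at 8.68 and 7.85 CPM, *Tlr5* at 8.68 and 10.2 CPM and *Tlr8* at 7.44 and 15.3 CPM. *Tlr11* and *Tlr12* had 1 and 2 UMIs in YFP− and 6 and 3 UMIs in YFP+ cells. In each remaining role, the most abundant gene was *Cd36* among co-receptors (556 and 632 CPM), *Ticam2* among adaptors (26.5 and 28.2 CPM), *Ikbkb* among kinases (93.5 and 105 CPM), *Irf8* among transcription factors (189 and 184 CPM), *Nfkbia* among inhibitors (296 and 410 CPM) and *Cxcl2* among target cytokines (297 and 402 CPM). None of these was past 1.5-fold.

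Cells were next grouped by their expression with all members and pathway genes left out of the genes used, which gave 9 clusters. These are described by number and leading genes, and a cluster against all other cells is a description, since cells of 1 library are not replicates. Levels of *Cd14* spread most over the 7 macrophage clusters of at least 100 cells, 6.50 times from lowest to highest, followed by *Tlr2* (3.81 times), *Tlr13* (2.92 times) and *Ly86* (2.74 times). *Tlr4*, *Tlr7* and *Myd88* spread 1.93, 1.58 and 1.96 times, and *Unc93b1* 1.43 times. Low counts widen the spread of the receptors.

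*Cd14* and *Tlr2* were highest in cluster 4, 705 cells led by the heat-shock and early-response genes *Hspa1a* and *Atf3* and the target cytokine genes *Cxcl2* and *Il1b*. *Tlr2* was at 119 CPM (102 to 138) there and at 40.4 CPM in all other cells, a log2 ratio of 1.56 (1.28 to 1.83). *Cd14* was at 1048 CPM (997 to 1101) against 472 CPM, a log2 ratio of 1.15 (1.06 to 1.23). Both differences were found within each library. *Tlr2* was at 109 against 32.7 CPM in YFP− cells (log2 1.74, 1.07 to 2.37) and at 121 against 43.4 CPM in YFP+ cells (1.48, 1.18 to 1.78). *Cd14* was at 991 against 417 CPM in YFP− cells (1.2502, 1.05 to 1.45) and at 1060 against 494 CPM in YFP+ cells (1.10, 1.01 to 1.197). Of the members, *Cd14* also varied most from cell to cell, with up to 33 UMIs in a cell and a variance over mean of 1.32 in YFP− and 1.29 in YFP+ cells after thinning, where the median gene had 1.02 and 1.01.

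The other members differed less between cluster 4 and the other cells. *Tlr4* stood at 33.0 against 34.9 CPM, *Tlr7* at 79.3 against 91.6 CPM, *Tlr13* at 35.7 against 38.5 CPM, *Ly86* at 597 against 581 CPM, *Unc93b1* at 502 against 457 CPM and *Myd88* at 28.4 against 26.4 CPM. Of these, the interval of the ratio left out 0 for *Unc93b1* (log2 0.14, 0.02 to 0.25). *Myd88* depended on how the cells were grouped: its log2 ratio was 0.11 (−0.40 to 0.59) here, but 0.61 (0.14 to 1.06) at a finer resolution and 0.66 (0.03 to 1.24) with the YFP+ library clustered alone, both past 1.5-fold. With the YFP− library clustered alone it was −0.27 (−1.20 to 0.57). Counting genes past 1.5-fold with an interval without 0, 2 of 8 members were higher in cluster 4 and 0 were lower, where 2.87% of all 5531 genes were higher and 6.53% lower.

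Of the 32 pathway genes, 9 were higher in cluster 4 and 0 lower by the same count. They were 5 of 5 target cytokines, 2 of 5 inhibitors, 1 of 6 transcription factors, 1 of 7 co-receptors and chaperones, 0 of 7 kinases and ligases and the single adaptor was not among them. *Cxcl2* was at 1706 against 111 CPM, *Ccl4* at 951 against 99.2 CPM, *Ccl3* at 873 against 164 CPM, *Ccl2* at 550 against 102 CPM and *Tnf* at 66.7 against 15.4 CPM. The NF-kB inhibitors *Nfkbia* (1290 against 199.955 CPM) and *Nfkbiz* (569 against 121 CPM), the NF-kB subunit *Rel* (110 against 46.3 CPM) and *Slc15a3* (99.1 against 60.3 CPM) were the others. Several of these genes were singled out after their values were seen, and *Cxcl2* and *Ccl4* are among the leading genes of the cluster. *Cd14* is listed by the study among markers of such a cluster in these libraries, so its level there is not independent of that choice.

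Cluster 4 was singled out as the cluster with the highest mean ratio for a list of 16 genes known to respond to dissociation of tissue. The list summed to 30614 CPM there and to between 2990 and 10188 CPM in the other clusters, a difference that follows from this choice. The part of the list in the levels of *Tlr2* and *Cd14* was not tested. *Nfkbia* is itself on that list, so its higher level in cluster 4 is not independent of the choice. With the YFP− library clustered alone, the early-response cluster took in 212 cells and the log2 ratio of *Cd14* was 0.47 (0.29 to 0.65), under 1.5-fold, and that of *Tlr2* was 1.17 (0.56 to 1.76). Cluster 4 held 15.1% of YFP+ and 8.90% of YFP− cells. Without it, the log2 ratio of YFP+ over YFP− was 0.41 for *Tlr2* and 0.25 for *Cd14*, still above 0.

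**Figure D3:**
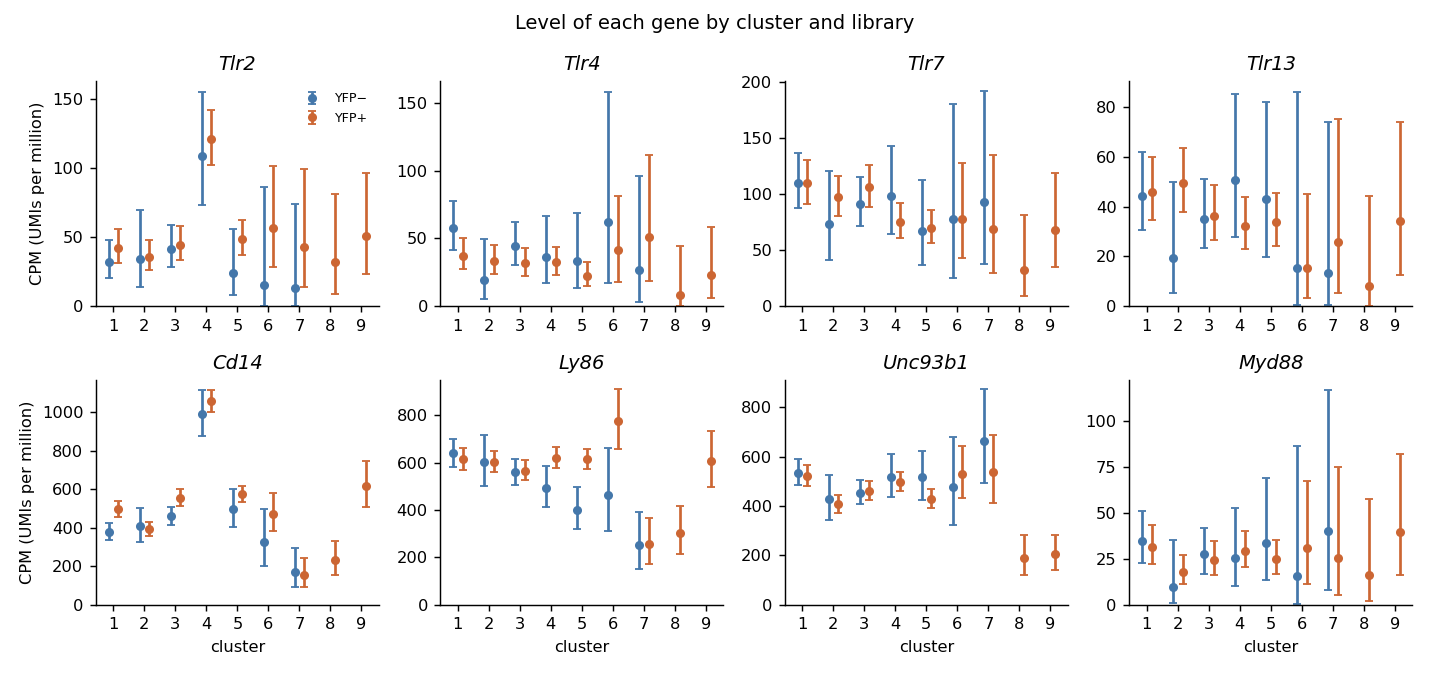
CPM of 8 members in clusters 1 to 9, for YFP− and YFP+ cells, with exact Poisson 95% intervals. Points from fewer than 30 cells are not drawn. *Tlr2* and *Cd14* are highest in cluster 4 in both libraries, and *Cd14* and *Ly86* are low in cluster 7.

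*Cd14* and *Ly86* were lowest, among the macrophage clusters, in cluster 7, 130 cells led by *Cd209g*, *Cd209f* and *Fcna*, scavenger lectin genes, with *Ccl8* and *Retnla*. *Cd14* was at 161 CPM (110 to 229) there against 576 CPM in other cells, a log2 ratio of −1.84 (−2.40 to −1.33), from 31 UMIs. *Ly86* was at 255 CPM (188 to 337) against 591 CPM, −1.21 (−1.65 to −0.81), from 49 UMIs. In YFP− cells *Cd14* was at 173 CPM and *Ly86* at 252 CPM, and in YFP+ cells at 154 and 256 CPM, so the libraries gave like values. *Unc93b1* went the other way, at 588 CPM (484 to 706) against 462 CPM, a log2 ratio of 0.35 (0.07 to 0.62) that is under 1.5-fold. With the dissociation genes left out of the clustering the cluster took in 258 cells, and *Ly86* was then at −0.51 (−0.72 to −0.31), under 1.5-fold, and *Cd14* at −0.89 (−1.13 to −0.66). *Unc93b1* was then at 0.08 (−0.11 to 0.27), and at 0.29 (−0.18 to 0.72) with the YFP− library clustered alone. Its interval still left out 0 at resolutions 0.5 and 1.2 and with 1000 variable genes. Cluster 7 had a median of 1179 UMIs, and the part of depth was not tested. Markers of neutrophils summed to 728 CPM in cluster 7 and to at most 174 CPM in the others. Only 2 of 7 genes, *Csf3r* and *Mmp9*, had UMIs there, 3 or more each, and *S100a8*, *S100a9*, *Retnlg*, *Cxcr2* and *Ly6g* were at 0. Markers of conventional dendritic cells summed to 224 CPM there and to at most 92.3 CPM in the others. Only 2 of 7 genes, *Zbtb46* and *Cd209a*, had UMIs there, 3 or more each, and *Flt3*, *Xcr1*, *Clec9a*, *Ccr7* and *Itgae* were at 0. The part of either list in these levels was not tested.

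The receptors had between 1 and 15 UMIs each in cluster 7, and the intervals of their log2 ratios to other cells held 0. *Tlr7* was at 78.0 CPM, *Tlr4* at 41.6 CPM, *Tlr2* at 31.2 CPM, *Tlr13* at 20.8 CPM and *Myd88* at 31.2 CPM. By the same count, 2 of 8 members were lower and 0 higher, where 7.61% of all genes were lower and 10.6% higher. Of the pathway genes, 8 were lower (*Ccl2*, *Ccl3*, *Ccl4*, *Cxcl2*, *Nfkbia*, *Nfkbiz*, *Irf5* and *Irf8*) and 3 higher (*Cd36*, *Tab2* and *Nfkb1*). *Irf8* and *Irf5*, interferon regulatory factors that act downstream of the receptors, were at 62.4 against 188 CPM and at 57.2 against 140 CPM. *Cd36*, a scavenger receptor that works with TLR2, was at 1186 against 600.0 CPM. *Tlr1* had 0 UMIs in cluster 7, where 3 UMIs would be 15.6 CPM, and was at 19.7 CPM elsewhere, so no difference past 1.5-fold could be shown at this depth.

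**Figure D4:**
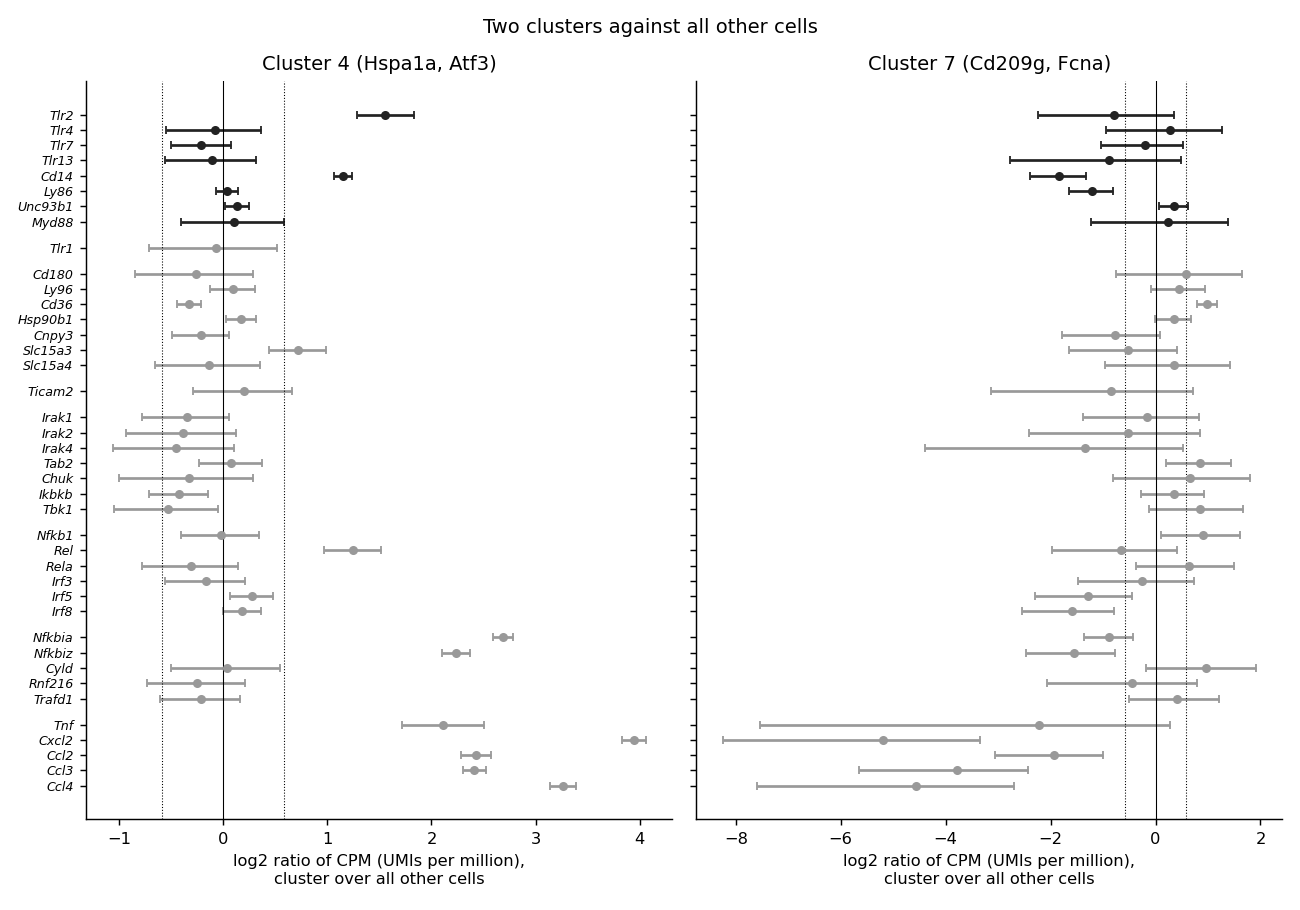
Log2 ratio of CPM in cluster 4 (left) and cluster 7 (right) over all other cells, for 8 members (black) and pathway genes by role (grey), with exact 95% intervals for counting error. Dotted lines mark 1.5-fold, and *Tlr1* is not drawn for cluster 7, where it had 0 UMIs. In cluster 4 *Tlr2* and *Cd14* stand right of the dotted line with the target cytokines, and in cluster 7 *Cd14* and *Ly86* stand left of it.

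Other clusters differed in single members. In cluster 9, 70 cycling cells led by *Top2a* and *Birc5*, *Unc93b1* was at 221 CPM (164 to 290), below its range of 410 to 588 CPM over the 7 larger macrophage clusters, while *Cd14* (619 CPM) and *Ly86* (554 CPM) were not low. In 57 cells of the YFP+ library *Unc93b1* was at 204 CPM (143 to 283), below the intervals of clusters 1 to 7 in that library. In 13 cells of the YFP− library it was at 275 CPM (154 to 454), from 15 UMIs. That interval overlapped those of clusters 2 to 6 in the YFP− library. Cluster 9 was also the deepest (median 3209.5 UMIs), and the part of depth was not tested. In cluster 5, 696 cells led by *S100a4*, *S100a6* and *Ccr2*, *Tlr4* (24.0 CPM, 16.7 to 33.4) and *Tlr7* (69.4 CPM, 56.5 to 84.3) were lowest among the 7 larger macrophage clusters. The interval of *Tlr4* lay below that of cluster 1 (36.2 to 55.7). That of *Tlr7* lay below those of clusters 1 (95.2 to 125) and 3 (86.9 to 115). Both overlapped those of several other clusters. In cluster 6, 143 cells led by the interferon-induced genes *Isg15* and *Ifi213*, *Ly86* was highest, at 699 CPM (601 to 809). This interval overlapped those of clusters 1, 2, 4 and 5. By library, *Ly86* was at 778 CPM (659 to 912) in 112 YFP+ cells and at 463 CPM (313 to 662) in 31 YFP− cells, from 30 UMIs. These 2 intervals overlapped. The YFP− value lay below those of clusters 1 to 4 in that library, but its interval held them. *Tlr7*, itself a receptor whose signal leads to interferon, was at 77.3 CPM (47.2 to 119) in those cells.

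Within clusters that had at least 50 cells of each library, YFP+ and YFP− cells could be compared at more like composition. *Cd14* was higher in YFP+ cells in cluster 1 (1174 cells led by *Gm28661* and *mt-Co2*; 496 against 380 CPM, log2 0.39, 0.18 to 0.60) and cluster 3 (932 cells led by *Cyr61* and *Gpx3*; 557 against 460 CPM, 0.28, 0.09 to 0.46), and its interval held 0 in clusters 2, 4 and 5. *Ly86* was higher in YFP+ cells in cluster 4 (620 against 494 CPM, 0.33, 0.06 to 0.60) and cluster 5 (614 against 402 CPM, 0.61, 0.29 to 0.95), and at nearly the same level in clusters 1, 2 and 3. *Tlr4* was lower in YFP+ cells in clusters 1, 3, 4 and 5 and higher in cluster 2, and *Tlr2* was higher in all 5, with intervals that held 0 each time. Cluster 2, which was led by *Cxcl13*, *Fhl3* and *Slc39a1* and shallow (median 1008 UMIs), held 26.2% of YFP+ and 8.52% of YFP− cells. Without it, the log2 ratio was 0.57 for *Tlr2*, −0.58 for *Tlr4*, 0.40 for *Cd14* and 0.14 for *Ly86*.

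The level of some members moved with the depth of a cell. In the lowest, middle and highest tertile of YFP− cells by UMIs, *Tlr7* was at 157, 91.4 and 72.6 CPM, *Unc93b1* at 718, 477 and 430 CPM and *Tlr4* at 66.5, 49.5 and 33.5 CPM. Highest over lowest, this was a log2 ratio of −1.11 (−1.60 to −0.61), −0.74 (−0.95 to −0.52) and −0.99 (−1.74 to −0.21), where the median gene stood at −0.11. In YFP+ cells the same ratio was −0.16 (−0.48 to 0.17) for *Tlr7*, −0.19 (−0.33 to −0.05) for *Unc93b1* and −0.52 (−1.04 to 0.02) for *Tlr4*, with −0.06 for the median gene. *Cd14* was at 478, 472 and 490 CPM over the tertiles of YFP− cells, and *Ly86* at 558, 556 and 537 CPM. The tertiles are not the same cells in the libraries, since the lowest reached up to 1683 UMIs in YFP− and 1079 UMIs in YFP+ cells.

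**Figure D5:**
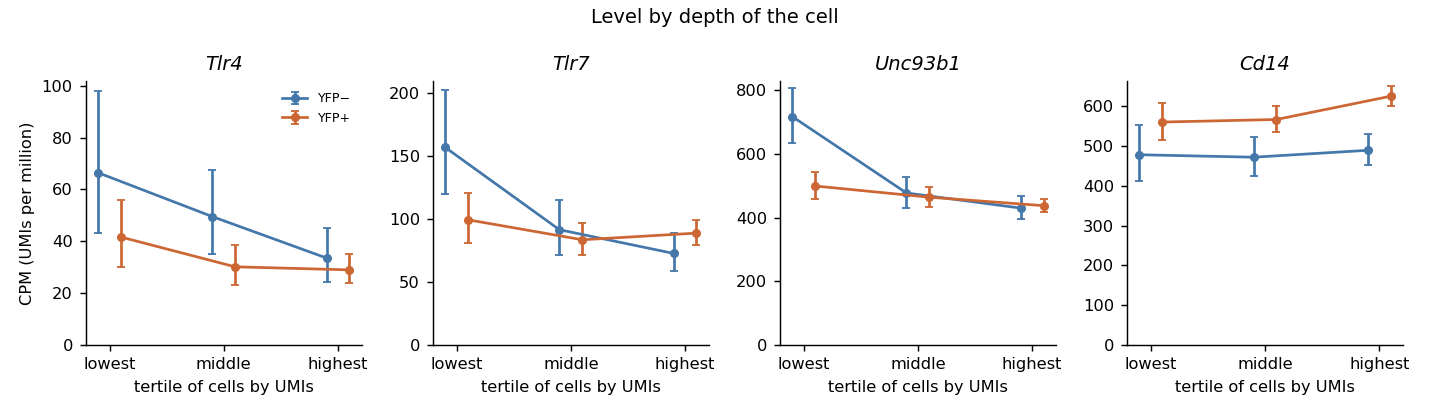
CPM of *Tlr4*, *Tlr7*, *Unc93b1* and *Cd14* in tertiles of the cells of each library by UMIs per cell, with exact Poisson 95% intervals. In YFP− cells *Tlr7* goes from 157 to 72.6 CPM and *Unc93b1* from 718 to 430 CPM between the lowest and the highest tertile, and *Cd14* stays between 472 and 490 CPM.

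Across cells, *Cd14* went with other genes than *Ly86* and *Unc93b1*, which shared *C1qb*. For the 3 members with at least 500 UMIs in both libraries, the 3 genes most alike among 5530 were found by Pearson's r of log-scaled counts across cells, which share library and depth, as the mean over the libraries. For *Cd14* they were *Hspa1a* (r = 0.20), *Cd74* (0.19) and *Junb* (0.19), for *Ly86* *C1qb* (0.17), *Lyz2* (0.17) and *C1qc* (0.17), and for *Unc93b1* *C1qa* (0.15), *H2-D1* (0.13) and *C1qb* (0.12). All of these correlations are weak, as is usual in sparse counts. Between members none exceeded that of *Tlr2* with *Cd14*, 0.10 in YFP− and 0.08 in YFP+ cells, apart from *Cd14* with *Ly86* and with *Unc93b1* in YFP+ cells (0.10 and 0.09).

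Receptors and their partners were not clearly found in the same cells at this depth. After thinning, 8 of 24 YFP− cells with a UMI of *Tlr2* had one of *Cd14*, 33.3% (15.6 to 55.3), against 20.7% (18.2 to 23.3) of the cells without *Tlr2*. In YFP+ cells it was 26 of 96, 27.1% (18.5 to 37.1), against 22.7% (21.4 to 24.1). For *Tlr4* with *Cd14* the shares were 25.9% (11.1 to 46.3) against 20.8% in YFP− and 23.3% (13.4 to 36.0) against 22.8% in YFP+ cells. *Unc93b1* was found in 12.96% (5.37 to 24.9) of YFP− cells with *Tlr7* against 22.7% without, and in 19.4% (14.2 to 25.6) against 20.1% of YFP+ cells. All of these intervals overlap, so an association could not be shown at this depth.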

How the data were processed

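The deposited files hold counts of UMIs for each gene in each barcode. The authors had obtained them with Cell Ranger from 10× Chromium Single Cell v2 libraries mapped to GRCm38. The study's methods and the submitters' processing notes give different Cell Ranger releases, the latter 3.0.2 (with Seurat 2.2.0), and the annotation release is not given in the sources used here. No filter on cells had been applied, and 66.2% of YFP− and 72.0% of YFP+ UMIs fell in the cells used here. Of 54838 gene identifiers, 54809 are in GENCODE M21.

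Counts were analysed with Python 3.11.15, numpy 2.4.6, scipy 1.17.1, pandas 2.3.3 and scanpy 1.11.5, and figures drawn with matplotlib 3.10.9. CPM are UMIs summed over cells per 1000000, with exact Poisson intervals. Ratios have exact conditional binomial intervals and shares Clopper-Pearson intervals. Genes with a mean of at least 20 CPM were compared. Clusters were found by the Leiden method (resolution 0.8, 2000 variable genes, 20 components, 20 neighbours, seed 0) on counts scaled to 10000. Scrublet marked 3 YFP− and 0 YFP+ cells. Whether doublets went unmarked was not tested, and marked cells were kept except in an alternative setting. Cells over 10% mitochondrial UMIs numbered 3 and 1.

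The members, the lists and the tests were chosen with earlier results of these data known. The text names all members, the other Toll-like receptors, *Cd180*, *Ly96*, pathway genes past 1.5-fold between libraries, the most abundant gene of each other role and, for members with at least 500 UMIs in both libraries, the 3 genes most alike across cells. The marker lists also covered dendritic, B, T, mast, fibroblast, endothelial and mural cells, and further lists are not reported here. Alternatives changed the cell minimum, weighting, thinning, scaling, pseudocount, free RNA, cell sets and clustering. Bulk libraries and other tissues are not analysed here.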

Additional observations from a re-analysis of the deposited data

How the results depend on the processing

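Between libraries, no member with a mean of at least 20 CPM that was past 1.5-fold in any setting changed sign in another. In the early-response cluster *Myd88* did so, as given below. With equal weight per cell the log2 ratio between libraries came to −0.39 for *Tlr7* and −0.23 for *Unc93b1*, and 1 member, *Tlr4*, was past 1.5-fold lower. With cells thinned to 500 UMIs it came to 0.12 for *Tlr2*, 0.12 for *Cd14*, −0.23 for *Unc93b1* and −0.72 for *Myd88*, and 2 members were past 1.5-fold lower. At a lower fold than 1.5, the smallest tried, 1 member was higher and 1 lower. The share of all genes past the fold is not given for equal weight, thinning or the lower fold. These counts of members therefore cannot be set against that of other genes. Thinning discards most UMIs, so the values of rare genes rest on few counts.

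For the early-response cluster over other cells, *Tlr2* came to 0.87 at resolution 1.2, 1.85 with the dissociation genes left out of the clustering, 1.17 with the YFP− library clustered alone and 1.03 with the YFP+ library alone. *Cd14* came to 1.06 at resolution 0.5, 0.68 at resolution 1.2, 1.26 without the dissociation genes, 0.47 in YFP− alone (under 1.5-fold) and 0.97 in YFP+ alone. *Myd88* came to 0.61 at resolution 1.2 and 0.66 in YFP+ alone, both past 1.5-fold, and changed sign to −0.27 (−1.20 to 0.57) in YFP− alone. *Unc93b1* changed sign to −0.14 in YFP− alone and *Ly86* to −0.07 at resolution 1.2, both under 1.5-fold. These clusterings draw the cluster differently, with 212 YFP− cells in place of 93. For the *Cd209* cluster, leaving out the dissociation genes gave −0.89 for *Cd14* and −0.51 for *Ly86* (under 1.5-fold) in 258 cells in place of 130, and the YFP+ library alone gave −0.71 for *Ly86*. The direction was the same in each case for *Tlr2* and *Cd14* in the early-response cluster and for *Cd14* and *Ly86* in the *Cd209* cluster. A further 3 alternatives were chosen after seeing the data: leaving out the shared barcodes, leaving out the *Cxcl13*, *Fhl3* and *Slc39a1* cluster, and taking the mural and Schwann cells out of the reference. They moved no ratio out of its interval. The depth limits the receptors most: *Tlr9* cannot be compared, and differences of rare genes within small clusters could not be resolved. No paired analysis was possible because each group is 1 library.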
